A study of Mus musculus with 15 samples.

Results

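Transcripts of 30 genes of fatty acid oxidation and ketone body handling were followed in mouse liver. The genes were chosen by symbol for their place in mitochondrial or peroxisomal beta-oxidation, the carnitine shuttle, ketone body metabolism or the regulation of these by PPARA. All 30 were found among the 18510 rows of the expression table, and all 30 were among the 10959 genes tested. The study sequenced liver RNA of 15 wild-type mice, 1 library per mouse, in 3 groups of 5. Ctrl mice were on a control diet and Alc mice on an alcohol diet. Alc UA mice had UA in addition to alcohol, and what UA stands for is not spelled out by the labels. Neither the labels nor the series text give the strain, sex, age, length of feeding, dose of UA or time of day at collection. Levels are FPKM, fragments scaled to transcript length and to the mapped fragments of a library, so that levels of different genes can be set side by side. This scaling does not make libraries fully comparable, since the sum of FPKM differed between them, and results with other scalings are given below. Differences are log2 fold changes of FPKM + 1 with their SE. A gene is said to have risen or fallen where the limma p-value, adjusted by Benjamini and Hochberg over all 10959 genes, was under 0.05.

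Hepatocytes burn fatty acids by removing acetyl-CoA units from an acyl-CoA chain. Long chains enter mitochondria as carnitine esters, and each turn of the mitochondrial spiral runs through an acyl-CoA dehydrogenase, a hydratase, a hydroxyacyl-CoA dehydrogenase and a thiolase, with electrons passing to the respiratory chain through the electron transfer flavoprotein. Peroxisomes shorten very long, branched and dicarboxylic chains with a separate set of enzymes. In fasting much of the acetyl-CoA becomes ketone bodies, and PPARA, a nuclear receptor that binds DNA as a heterodimer with RXR, switches on most of these genes. Ethanol oxidation competes with fatty acid oxidation for NAD+ in liver, and reduced fatty acid oxidation is a long-standing part of textbook accounts of alcoholic fatty liver.

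Some properties of the libraries bear on all members. The sum of all FPKM ran from 551153 to 668832 over the libraries, and the number of reads is unknown. Hepatocyte markers were high throughout, the 11 marker genes in the table summing to between 36553 and 69177 FPKM in every library. In a principal component analysis Ctrl 5 stood at -6.04 on the first component (45.7% of the variance), near the alcohol groups and away from the other controls at -48.5 to -30.2. On the second component (14.0%) Ctrl 1 stood at 23.2, away from the other controls at -24.3 to -1.14, and Alc 4 stood at 25.1, away from the other Alc livers at -4.89 to 9.84. The median log2 fold change over all tested genes was -0.12 for Alc against Ctrl and -0.16 for Alc UA against Ctrl, and quantile normalization brought these to -0.0019 and 0.0038. Clock genes, from a list of core and output genes, differed between Ctrl and the alcohol groups. Of 14 tested, 9 rose and 4 fell in Alc (92.9%, against 33.3% of all genes tested). The clock output gene Dbp stood at 83.3 ± 25.8 FPKM in Alc against 4.31 ± 1.38 in Ctrl (SD, n = 5 per group). Markers of sinusoidal endothelial cells were lower, with 0 of 12 higher and 11 lower in Alc, and their sum ranged from 73.4 to 167 FPKM in Alc against 168 to 482 in Ctrl. For 8 erythroid markers the sum ranged from 579 to 992 in Alc against 1434 to 8803 in Ctrl. The 5 tested lymphoid markers all fell, and the sum of the 11 listed ranged from 3.66 to 13.7 in Alc against 9.65 to 53.4 in Ctrl. Of 12 Kupffer cell and macrophage markers 0 passed, all 12 differences were positive, and the sums overlapped (181 to 305 against 64.8 to 447). Of the hepatocyte markers 1 rose and 3 fell. In such bulk samples fewer cells of a type and less RNA per cell cannot be told apart, nor can the alcohol diet be told apart from any difference in collection time. The part of these cell type markers in the members' differences was not tested.

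The comparison of Alc with Ctrl sets livers of the alcohol diet against those of the control diet. The members moved in both directions. Of the 30 members, 4 rose (Ppara, Acads, Hadh and Eci2) and 4 fell (Ehhadh, Acaa1b, Crat and Etfb). That is 26.7% of the members, against 33.3% of all genes tested, of which 10.6% were higher and 22.8% lower. At an unadjusted p under 0.05 the count was 14 of 30, against 45.0% of all genes. The median log2 fold change of the members was -0.04, or 0.08 above that of all genes. The direction of the split depended on scale, with 6 higher and 3 lower after quantile normalization, 6 and 4 with median-of-ratios size factors, and 6 and 2 when all libraries were given 1 total. Over all genes the split moved likewise, from 1157 higher and 2497 lower to 2049 and 2022, 2012 and 1943, and 1589 and 1288. Together the members held 1.34% ± 0.177 of all FPKM in Ctrl, 1.23% ± 0.251 in Alc and 1.25% ± 0.191 in Alc UA (SD, n = 5), with ranges that overlapped.

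**Figure D1:**
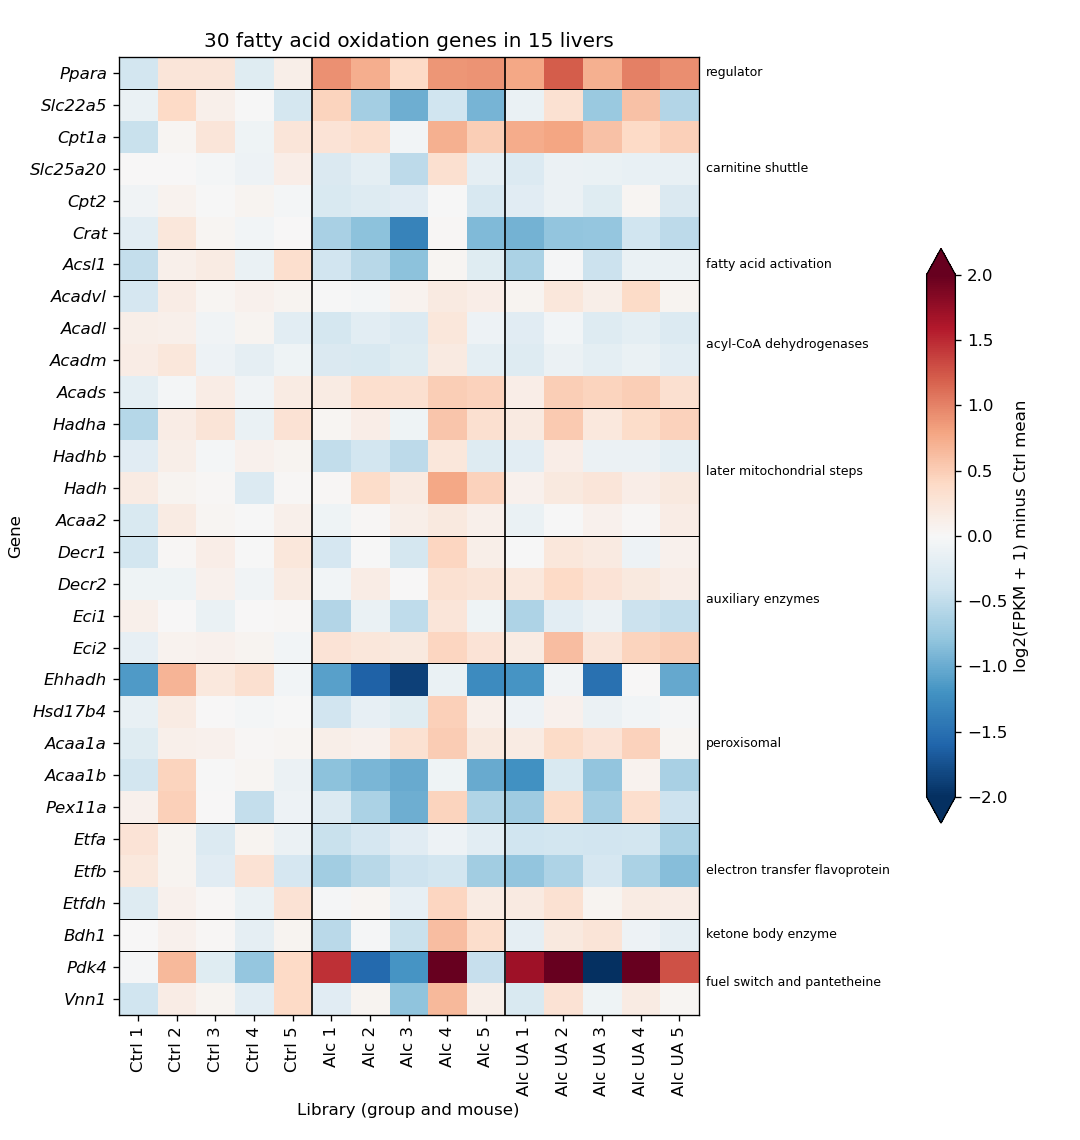
Levels of the 30 members (rows, grouped by role) in the 15 libraries (columns), as log2(FPKM + 1) minus the mean of the 5 Ctrl libraries of that gene. Ppara is raised in all 10 alcohol-fed livers, Ehhadh and Crat are low in most of them, and the Alc 4 column is redder than the other Alc columns for 28 of 30 genes.

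Ppara, the regulator of the pathway, rose. Its levels in Ctrl 1 to 5 were 30.4, 46.6, 46.8, 33.2 and 42.5 FPKM, and in Alc 1 to 5 they were 75.2, 65.9, 52.4, 73.4 and 74.2. All 5 Alc livers lay above all 5 Ctrl livers, as did those of 6.18% of all genes tested. The mean was 1.71-fold higher (log2 fold change 0.77 ± 0.14, limma adjusted p = 0.0013). The call held in each of 28 alternative settings, with adjusted p from 2.3e-04 to 0.0087. Rxra, which encodes the main hepatic RXR partner of PPARA, also rose, from 76.2 ± 12.9 to 109 ± 4.23 FPKM (log2 fold change 0.53 ± 0.11, limma adjusted p = 0.0022). The other RXR genes did not rise. Rxrb fell, with log2 fold changes of -0.26 to -0.10 over 28 alternatives, and that call held in 15 of them. Rxrg did not pass and was negative in each alternative (-0.42 to -0.16).

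The carnitine shuttle was uneven, with 0 of 5 members higher and 1 lower. Crat, carnitine O-acetyltransferase, which exchanges acetyl groups between CoA and carnitine, stood at 51.0, 69.6, 60.7, 57.0 and 60.0 FPKM in Ctrl 1 to 5 and at 37.4, 33.0, 23.0, 60.1 and 31.8 in Alc 1 to 5. Alc 4 lay within the Ctrl range and the other 4 Alc livers lay below every Ctrl liver. Crat fell by 0.73 ± 0.19 on the log2 scale (limma adjusted p = 0.0086), and the call held in all 28 alternatives. Cpt1a, the rate-limiting step that makes acylcarnitine at the outer membrane, pointed upward, at 134, 187, 215, 172 and 214 FPKM in Ctrl and 221, 230.1, 175, 297 and 257 in Alc. Its difference of 0.35 ± 0.15 did not pass (limma adjusted p = 0.083). It passed after each of the 3 rescalings and with library weights, and without Ctrl 5 or without Alc 3 (adjusted p = 0.017 to 0.0499). Those were 6 of 28 alternatives, and its adjusted p ran up to 0.30 in the others.

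Cpt2, the inner-membrane partner of Cpt1a, pointed downward, at 84.8 ± 3.58 in Ctrl and 72.6 ± 6.86 in Alc (log2 fold change -0.22 ± 0.08, limma adjusted p = 0.0511). Cpt2 passed in 7 of 28 alternatives. Among them were the fits without Alc 4 and without Alc UA 4 (adjusted p = 0.018 and 0.041), with no filter, with a filter of 5 FPKM and with library weights (0.0016 to 0.0478). In the others its adjusted p ran up to 0.54, and its difference shrank to as little as -0.09. The ratio of Cpt1a to Cpt2 within a library was 2.18 ± 0.408 in Ctrl, 3.25 ± 0.507 in Alc and 3.70 ± 0.572 in Alc UA (SD, n = 5). Its range in Alc, 2.43 to 3.78, overlapped that in Ctrl, 1.65 to 2.61, while the range in Alc UA, 2.76 to 4.24, did not. This pair and the others set in ratio below were chosen after the data were seen. How often ranges lie apart for other pairs of genes was not counted.

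Slc25a20, the carrier that exchanges acylcarnitine for carnitine across the inner membrane, was 143 ± 8.37 in Ctrl and 129 ± 29.3 in Alc (log2 fold change -0.17 ± 0.12, limma adjusted p = 0.28). It passed in 1 of 28 alternatives, without Alc 4, at -0.29 (adjusted p = 0.021), and its adjusted p ran up to 0.87 in the others. Slc22a5, the plasma membrane carnitine importer OCTN2, was 37.1, 53.7, 43.7, 40.3 and 31.6 in Ctrl and 55.6, 25.1, 20.1, 30.6 and 20.8 in Alc. Alc 1 was the highest of all Ctrl and Alc livers and the other Alc values were low, and the difference of -0.51 ± 0.28 did not pass (limma adjusted p = 0.17). Slc22a5 passed in 2 of 28 alternatives, among them without Alc 1 (adjusted p = 0.036), and its adjusted p ran up to 0.35 in the others. Acsl1, the main long-chain acyl-CoA synthetase of liver, which activates fatty acids before transport, was 631 ± 128 in Ctrl and 483 ± 108 in Alc (log2 fold change -0.39 ± 0.18, limma adjusted p = 0.10). Acsl1 passed in 4 of 28 alternatives, among them without Ctrl 1 and without Alc 4 (adjusted p = 0.040 and 0.042). In the others its adjusted p ran up to 0.36.

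Among the 4 mitochondrial acyl-CoA dehydrogenases the short-chain enzyme rose. Acads stood at 64.4, 71.6, 81.5, 70.0 and 82.5 FPKM in Ctrl and at 82.2, 93.2, 91.9, 104 and 102 in Alc. The groups touched, since Alc 1 lay between the Ctrl 3 and Ctrl 5 values, and Acads rose by 0.35 ± 0.10 (limma adjusted p = 0.015). Only the omission of Ctrl 1, Ctrl 5 and Alc 4 together ended that call among 28 alternatives (adjusted p = 0.0515). Acadvl, Acadl and Acadm, which take very long, long and medium chains, did not pass, with log2 fold changes of 0.07 ± 0.10, -0.14 ± 0.11 and -0.17 ± 0.11 (limma adjusted p = 0.62, 0.32 and 0.24). By level Acadm was the most abundant of the 4 in Ctrl, at 368 ± 45.2 FPKM, and Acads the least, at 74.0 ± 7.79.

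In the later mitochondrial steps 1 of 4 members rose. Hadh, the short-chain 3-hydroxyacyl-CoA dehydrogenase, was 268, 246, 243, 197 and 241 FPKM in Ctrl and 243, 306, 269.5, 406 and 328 in Alc, with Alc 4 far above the rest and Alc 1 within the Ctrl range. Hadh rose by 0.36 ± 0.12 (limma adjusted p = 0.037). Hadh missed the threshold when Ctrl 2, 3 or 4 or Alc 2, 4 or 5 was omitted (adjusted p = 0.054 to 0.095) and with the 2 groups alone. Acaa2, the mitochondrial thiolase, was 604 ± 70.8 and 633 ± 46.7 (log2 fold change 0.07 ± 0.10, limma adjusted p = 0.61). Hadha and Hadhb encode the alpha and beta subunits of the mitochondrial trifunctional protein, and their differences had opposite signs, 0.19 ± 0.16 and -0.28 ± 0.13, neither past the threshold (limma adjusted p = 0.38 and 0.11). The level of Hadhb relative to Hadha was 1.18 to 1.85 in Ctrl and 0.971 to 1.15 in Alc, so the ranges of this ratio did not overlap. Hadhb passed in 3 of 28 alternatives, among them without Alc 4, at -0.41 (adjusted p = 0.0090). In the others its adjusted p ran up to 0.48.

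The auxiliary enzymes let unsaturated chains enter the spiral. Eci2, an enoyl-CoA isomerase found in mitochondria and peroxisomes, stood at 174, 203, 205, 202 and 188 FPKM in Ctrl and at 234, 227, 222, 261 and 235 in Alc, and all 5 Alc livers lay above all 5 Ctrl livers. The rise was small, 0.28 ± 0.10 on the log2 scale (limma adjusted p = 0.037). Omitting any single liver of the 10 other than Ctrl 3 or Alc 3 took it over the threshold (adjusted p = 0.0502 to 0.085), and omitting Ctrl 1 and Ctrl 5 together gave an adjusted p of 0.15. Eci1, its mitochondrial counterpart, was 245 ± 14.5 in Ctrl and 215 ± 50.8 in Alc, and did not pass (-0.22 ± 0.14, limma adjusted p = 0.25). The dienoyl-CoA reductases Decr1 (mitochondrial) and Decr2 (peroxisomal) were -0.03 ± 0.15 and 0.14 ± 0.09 (limma adjusted p = 0.88 and 0.27).

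**Figure D2:**
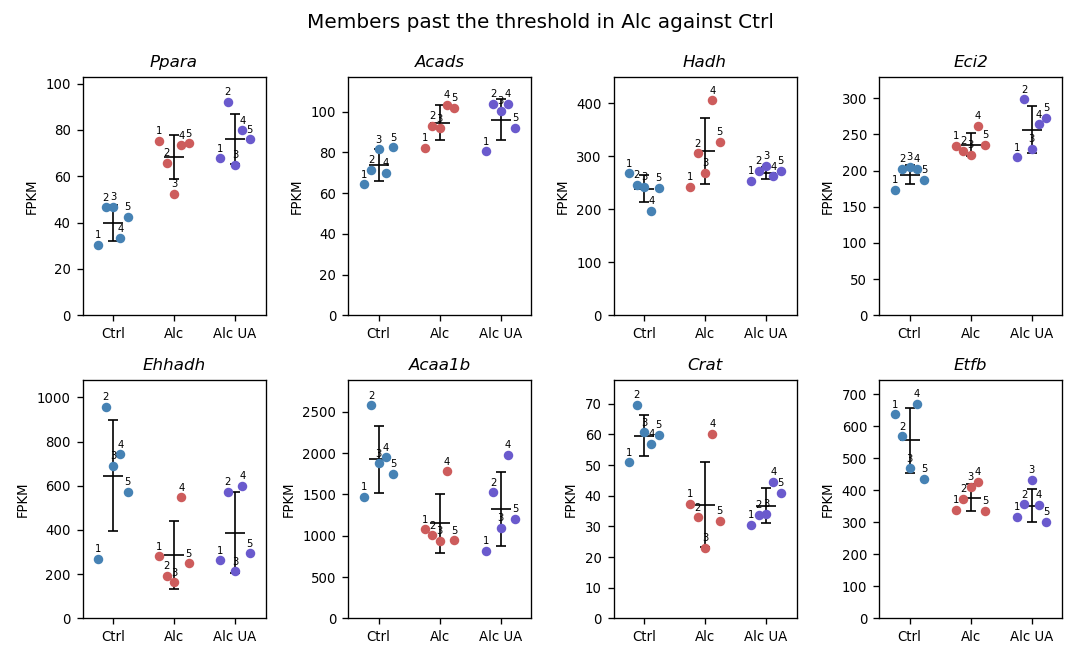
FPKM (vertical axes, from 0) of the 8 members past the threshold in Alc against Ctrl, by group. Each point is 1 mouse labelled with its replicate number, bars are the mean ± SD (n = 5), and the groups are fully apart for Ppara, Eci2 and Etfb.

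The largest falls among the members were those of the peroxisomal genes Ehhadh and Acaa1b. Ehhadh, the L-bifunctional enzyme with hydratase and dehydrogenase activity, was 270.4, 957, 689, 743 and 572 FPKM in Ctrl 1 to 5 and 280.0, 193, 163, 547 and 248 in Alc 1 to 5. Ctrl 1 lay among the Alc values and Alc 4 just under Ctrl 5, while the other 4 controls lay above all Alc livers. Ehhadh fell by 1.19 ± 0.38 on the log2 scale (limma adjusted p = 0.026). Ehhadh missed the threshold when Ctrl 2, 3 or 4 or Alc 2, 3 or 5 was omitted (adjusted p = 0.052 to 0.068) and when all libraries were given 1 total (0.055), and without Ctrl 1 and Ctrl 5 the difference was -1.59 (adjusted p = 0.0071). Hsd17b4, the D-bifunctional enzyme that performs the same steps through the other stereoisomer, was 258 ± 20.7 and 256 ± 65.2 (-0.04 ± 0.13, limma adjusted p = 0.83). The ratio of Ehhadh to Hsd17b4 within a library was 2.46 ± 0.826 in Ctrl and 1.09 ± 0.357 in Alc (SD, n = 5), and its ranges overlapped through Ctrl 1.

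The peroxisomal thiolase, which ends the spiral there, is encoded in the mouse by a pair of near-identical genes, Acaa1a and Acaa1b. Acaa1b was the most abundant member, at 1471, 2579.6, 1875, 1948 and 1751 FPKM in Ctrl and 1077, 1004, 942, 1781 and 942 in Alc. Alc 4 lay within the Ctrl range and the other 4 Alc livers lay below it. Acaa1b fell by 0.77 ± 0.23 (limma adjusted p = 0.021). Omitting Ctrl 2 or Alc 5 took it over the threshold (adjusted p = 0.055 to 0.057), as did quantile normalization (0.070), and so did scaling, when all libraries were given 1 total (0.065). Acaa1a was 139, 178, 175, 168 and 169 in Ctrl and 179.5, 175, 204, 235 and 189 in Alc. Its difference was 0.24 ± 0.11 (limma adjusted p = 0.099), and it passed as a rise after each of the 3 rescalings (adjusted p = 0.017 to 0.037). Those were the only passes among 28 alternatives, and its adjusted p ran up to 0.50 in the others. The ratio of Acaa1b to Acaa1a was 10.4 to 14.5 in Ctrl, 4.62 to 7.57 in Alc and 4.41 to 8.68 in Alc UA, so that neither alcohol group overlapped with Ctrl. This ratio does not depend on the scaling of a library. The pair was set in ratio after the data were seen, with a fall of Acaa1b and an upward difference of Acaa1a, so the separation is no separate support for either.

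Because these genes are so alike, their sequences show what separates their reads. Over 1275 aligned coding bases of the GENCODE M21 transcripts 1231 were identical (96.5%), and 24.1% of the windows of 100 coding bases in Acaa1b occurred unchanged in Acaa1a. No label gives the read length or how shared reads were counted, so the division of fragments between the pair is uncertain. The stretch of 90 coding bases with the most differences, coding bases 460 to 549 of each, held 13 of them, shown in capitals:
Acaa1a: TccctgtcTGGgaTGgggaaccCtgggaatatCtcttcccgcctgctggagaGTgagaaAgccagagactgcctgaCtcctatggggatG
Acaa1b: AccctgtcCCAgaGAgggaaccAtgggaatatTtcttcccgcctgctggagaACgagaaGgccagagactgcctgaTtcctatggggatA

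The windows around their transcription starts (250 bases before to 50 after, RefSeq, GRCm38.p6) were unlike each other, with 47.3% identity in a global alignment. They are shown because the ratio of the pair separated Ctrl from both alcohol groups. The Acaa1a window lies at chr9:119341044-119341343 on the + strand and the Acaa1b window at chr9:119157044-119157343 on the - strand.
Acaa1a window: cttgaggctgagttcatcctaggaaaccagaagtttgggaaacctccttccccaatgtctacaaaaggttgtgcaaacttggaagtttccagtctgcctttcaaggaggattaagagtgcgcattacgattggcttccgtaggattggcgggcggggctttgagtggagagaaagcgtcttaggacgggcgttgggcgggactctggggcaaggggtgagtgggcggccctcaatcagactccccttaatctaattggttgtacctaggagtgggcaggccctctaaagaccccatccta
Acaa1b window: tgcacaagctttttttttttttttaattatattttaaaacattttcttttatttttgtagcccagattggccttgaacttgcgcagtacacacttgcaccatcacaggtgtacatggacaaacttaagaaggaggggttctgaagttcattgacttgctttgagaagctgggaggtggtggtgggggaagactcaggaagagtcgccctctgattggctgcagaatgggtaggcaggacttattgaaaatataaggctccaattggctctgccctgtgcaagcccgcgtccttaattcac

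PPARA with RXR binds direct repeats spaced by 1 base, and this DR1 motif, the half-site AGGTCA given 2 times in a row with 1 base of any kind between, was searched on both strands with up to 2 mismatches at the 12 fixed bases. Neither thiolase window held a match, and bases outside the windows were not searched for any gene. Of the 25 members with a window in the table, 2 held one, Etfa and Slc25a20, against 4.40% of 27025 genes. The Slc25a20 match was AGGTGAAAGGTCG. In Etfa it lay 77 bases before the start on the reverse strand, in capitals in its window at chr9:55512194-55512493 (- strand of GRCm38.p6).
Etfa window: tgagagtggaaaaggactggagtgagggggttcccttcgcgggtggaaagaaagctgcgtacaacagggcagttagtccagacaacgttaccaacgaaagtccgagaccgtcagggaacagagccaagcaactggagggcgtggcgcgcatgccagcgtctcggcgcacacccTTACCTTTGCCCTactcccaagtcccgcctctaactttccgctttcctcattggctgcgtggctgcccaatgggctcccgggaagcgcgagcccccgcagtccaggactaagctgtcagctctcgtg
The clock motifs CACGTG (E-box), TTATGTAA (D-box) and RORE (the same half-site with AANT directly before it, which can overlap a DR1) were found on either strand with no mismatch in 0 of the 25 members' windows, against 8.09%, 1.11% and 0.259% of genes.

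The electron transfer flavoprotein carries electrons from the acyl-CoA dehydrogenases, and Etfdh passes them on to ubiquinone. Etfb, its beta subunit, was 637, 569, 468, 670.3 and 435 FPKM in Ctrl and 339, 374, 412, 425 and 336 in Alc. All 5 Alc livers lay below all 5 Ctrl livers, as did those of 9.61% of all genes tested. Etfb fell by 0.54 ± 0.14 (limma adjusted p = 0.0081), and the call held in all 28 alternatives (adjusted p from 1.4e-04 to 0.026). Etfa, the alpha subunit, was 391, 337, 266, 336 and 296 in Ctrl and 237, 256, 275, 300.2 and 279 in Alc (-0.26 ± 0.11, limma adjusted p = 0.073). Etfa passed in 2 of 28 alternatives, among them without Ctrl 3 (adjusted p = 0.029), and its adjusted p ran up to 0.41 in the others. Etfdh did not pass (0.09 ± 0.12, limma adjusted p = 0.60).

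Bdh1, which interconverts the ketone bodies acetoacetate and 3-hydroxybutyrate, differed by less than its spread between mice. Its levels were 106, 111, 106, 92.0 and 109 FPKM in Ctrl and 71.5, 102, 76.2, 161 and 134 in Alc, so that the Alc livers were spread on both sides of the tight Ctrl group (log2 fold change -0.01 ± 0.19, 95% interval -0.41 to 0.39). The other ketone body genes were taken from a list of 9, of which 1 rose and 2 fell (33.3%, against 33.3% of all genes). That split turned to 3 higher and 1 lower after quantile normalization and to 3 and 2 with median-of-ratios size factors. It was 2 and 1 when all libraries were given 1 total. Slc16a1, the monocarboxylate transporter MCT1, which carries ketone bodies and lactate across the plasma membrane, was 23.7, 33.1, 36.5, 31.6 and 32.5 FPKM in Ctrl and 8.41, 8.88, 6.98, 11.7 and 8.08 in Alc. No Alc liver reached the Ctrl range, and Slc16a1 fell by 1.73 ± 0.16 (limma adjusted p = 6.7e-06), more than any of the 30 members.

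Pdk4, Pex11a and Vnn1 are PPARA targets outside the spiral itself. Pdk4 blocks pyruvate dehydrogenase and so spares glucose, and it had the widest spread of all members. It was 21.8, 35.0, 18.4, 12.5 and 29.5 FPKM in Ctrl 1 to 5, 62.5, 6.89, 9.22, 92.4 and 15.8 in Alc 1 to 5 and 73.4, 248, 2.98, 93.5 and 54.6 in Alc UA 1 to 5. Each alcohol group held values both above and below the whole Ctrl range, and the Alc difference of 0.06 ± 0.89 had a 95% interval of -1.84 to 1.95. Pex11a, which drives peroxisome division, was 108, 142, 103, 72.9 and 94.2 in Ctrl and 83.8, 65.2, 51.0, 139 and 66.8 in Alc (-0.41 ± 0.27, limma adjusted p = 0.26). Vnn1, a pantetheinase, was 64.2, 94.6, 87.8, 73.0 and 112 in Ctrl and 72.0, 88.5, 48.3, 133 and 91.8 in Alc (-0.04 ± 0.22, limma adjusted p = 0.89).

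**Figure D3:**
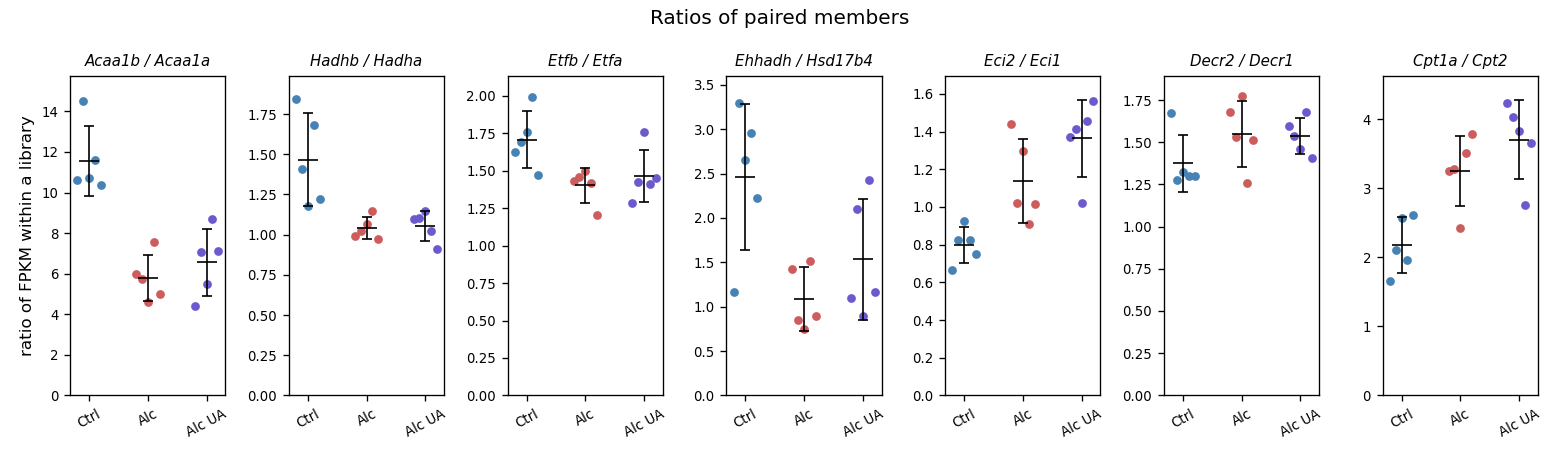
Ratios of FPKM within a library (vertical axes, from 0) for 7 pairs of members, by group. The pairs were chosen after the data were seen. Points are mice and bars are the mean ± SD (n = 5). Ctrl lies wholly above both alcohol groups for Acaa1b relative to Acaa1a (10.4 or more against 8.68 or less) and for Hadhb relative to Hadha (1.18 or more against 1.15 or less).

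Single livers carried much of the spread in Alc. Alc 4 held the highest level of its group for 28 of 30 members, and for 44.4% of all tested genes. Its members summed to 1.66% of all FPKM, against 1.02% to 1.25% in the other 4 Alc livers. Without Alc 4, 2 members rose and 8 fell in Alc against Ctrl, while over all 10959 genes 980 rose and 2592 fell. Hadhb, Cpt2, Slc25a20 and Acsl1 then passed as falls (adjusted p = 0.0090 to 0.042), Hadh and Eci2 did not pass (0.080 and 0.075), and the median of the members was -0.22, against -0.15 over all genes. In Ctrl the low liver was Ctrl 1, the lowest of its group for 18 of 30 members but the highest for 45.7% of all tested genes. Leaving out Ctrl 1 and Ctrl 5 gave 3 rises and 4 falls. Without Ctrl 2 or without Alc 5 the count was 4, and without Ctrl 4 or without Alc 2 it was 5.

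**Figure D4:**
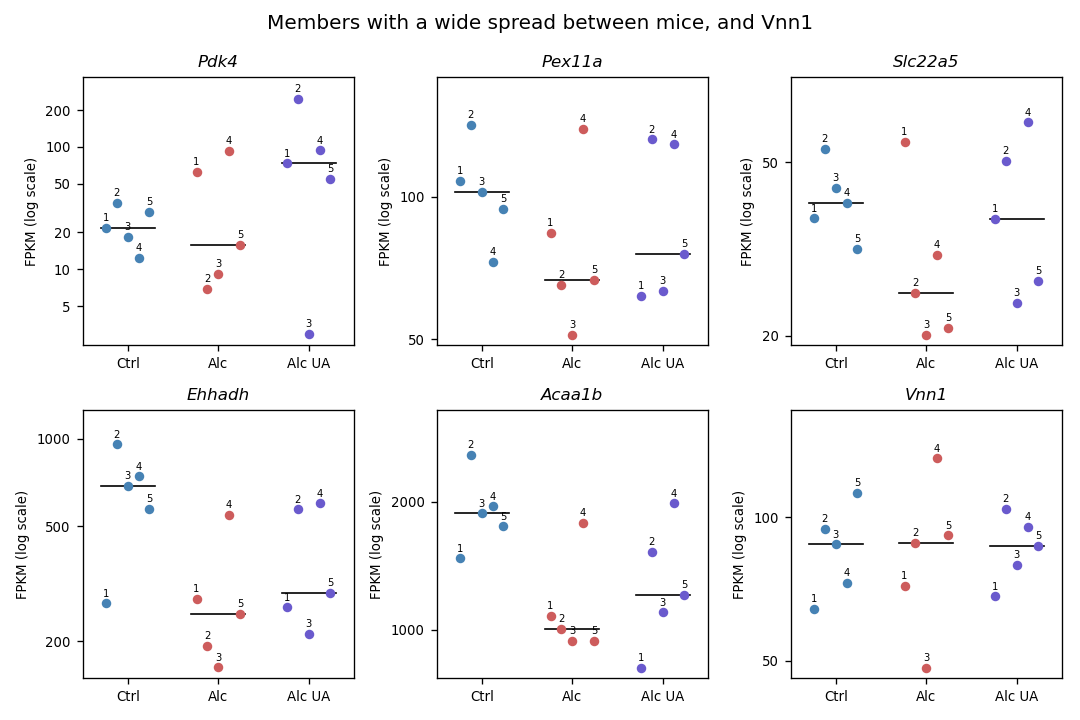
FPKM on log axes for Pdk4, Pex11a, Slc22a5, Ehhadh, Acaa1b and Vnn1 by group, each point being 1 mouse labelled with its replicate number and each line the median of 5. Alc 4, Alc UA 2 and Alc UA 4 are high in their groups for Pdk4, Pex11a, Ehhadh and Acaa1b, and Alc UA 3 has the lowest Pdk4 at 2.98 FPKM.

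The comparison of Alc UA with Alc asks what UA added to the alcohol diet. With limma 0 of 30 members changed, 0 had an unadjusted p under 0.05, and 0 passed in any of 28 alternative settings. The smallest adjusted p of a member was 0.83. For 0 members the ranges of the groups were apart, against 1.18% of all genes. Over all genes 0.00912% passed (1 gene) and 6.06% had an unadjusted p under 0.05. The median difference of the members was 0.07, against -0.05 over all genes, and 22 of 30 were positive. The members were measured in the same livers, so that count is not one of independent values. The share of positive differences over all genes was not counted, and no conclusion is drawn from it. Ppara was 67.8, 92.1, 64.9, 79.8 and 76.0 FPKM in Alc UA 1 to 5, overlapping with Alc (0.16 ± 0.14, 95% interval -0.14 to 0.46). Cpt1a was 305, 314, 273, 239 and 253, with Alc UA 1 and Alc UA 2 above the highest Alc liver and the other 3 inside the Alc range (0.24 ± 0.15, 95% interval -0.08 to 0.56).

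For the members that fell in Alc against Ctrl, the Alc UA livers overlapped with Alc. Ehhadh was 262, 571, 212, 599 and 294 FPKM in Alc UA 1 to 5, with Alc UA 2 and Alc UA 4 near the Ctrl values and the other 3 near the Alc values (0.44 ± 0.38, 95% interval -0.37 to 1.25). Acaa1b was 814, 1526, 1099, 1981 and 1207, again with Alc UA 2 and Alc UA 4 highest (0.19 ± 0.23, 95% interval -0.31 to 0.68). Crat was 30.5, 33.7, 34.1, 44.5 and 41.0 (0.04 ± 0.19, 95% interval -0.35 to 0.44) and Etfb was 316, 356, 433, 354 and 302 (-0.10 ± 0.14, 95% interval -0.40 to 0.19). Pdk4 had the largest point difference, 1.12 ± 0.89, with an interval of -0.78 to 3.01 and both the highest and the lowest of the 15 livers in Alc UA.

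The members that had risen in Alc likewise overlapped between Alc UA and Alc. Acads was 80.5, 104, 100.4, 104 and 92.2 FPKM in Alc UA 1 to 5, with Alc UA 1 the only one inside the Ctrl range (0.02 ± 0.10 against Alc, 95% interval -0.19 to 0.23). Eci2 was 218, 298, 229.5, 264 and 273, all above every Ctrl liver (0.11 ± 0.10, 95% interval -0.09 to 0.32). Hadh was 253, 273, 283, 262 and 273, a narrow range that lay inside that of Alc (-0.18 ± 0.12, 95% interval -0.45 to 0.08). Of the members without a call, Acaa1a was 185, 215, 199.6, 228 and 169.5, Bdh1 was 91.9, 120.1, 125, 97.3 and 91.9 and Vnn1 was 68.3, 104, 79.6, 95.5 and 87.1 FPKM in Alc UA, each overlapping with Alc. Pex11a was 61.8, 132, 63.3, 129 and 75.7 and Slc22a5 was 37.1, 50.4, 23.8, 61.7 and 26.7, and for both genes Alc UA 2 and Alc UA 4 stood above the other 3 livers. For 23 of the 30 members the 95% interval of the difference lay within 0.5 of 0 on the log2 scale. The other 7 were Cpt1a, Slc22a5, Ehhadh, Acaa1b, Pex11a, Pdk4 and Vnn1, whose intervals reached beyond that. A difference of 0.5 is larger than those called for Acads, Hadh and Eci2 in Alc against Ctrl. An interval within 0.5 of 0, such as that of Hadh, can thus still hold a difference of that size.

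**Figure D5:**
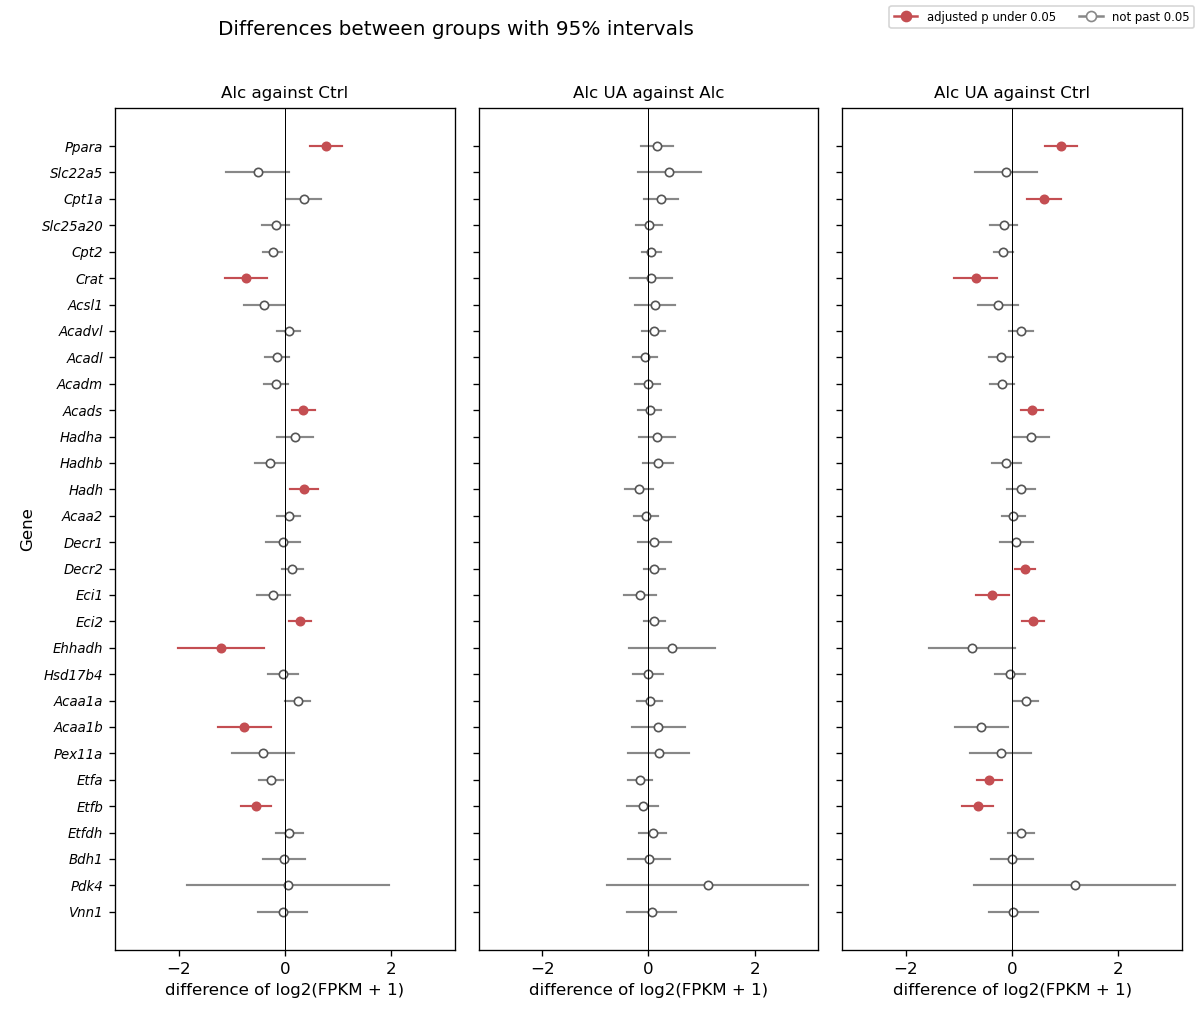
Differences of log2(FPKM + 1) for each member in the 3 comparisons, with 95% intervals from the limma fit. Filled red points passed the adjusted p of 0.05, and the middle panel, Alc UA against Alc, holds 0 of them.

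Alc UA against Ctrl shares its control livers with the Alc comparison and is given beside it. Of 30 members 5 rose (Ppara, Cpt1a, Acads, Decr2 and Eci2) and 4 fell (Crat, Etfa, Etfb and Eci1), or 30%, against 42.6% of all genes (10.5% higher and 32.1% lower). At an unadjusted p under 0.05 there were 12 members, against 51.4% of all genes, and the ranges of the groups did not overlap for 7 members, against 20.2% of all genes. The split was 9 and 3 after quantile normalization, 9 and 2 with median-of-ratios size factors and 6 and 3 when all libraries were given 1 total. That of all genes moved from 1152 higher and 3521 lower to 2420 and 2430, 2425 and 2362, and 1296 and 2545. Ppara rose by 0.93 ± 0.14 and Cpt1a by 0.60 ± 0.15 (limma adjusted p = 2.4e-04 and 0.0061), and for both genes all 5 Alc UA livers lay above all Ctrl livers, as for 5.48% of all genes. Etfb fell by 0.65 ± 0.14, Etfa by 0.43 ± 0.11 and Crat by 0.69 ± 0.19 (limma adjusted p = 0.0020, 0.0059 and 0.0086), and in each case all 5 Alc UA livers lay below all Ctrl livers, as for 14.7% of all genes. Etfa was 246, 249, 247, 251 and 208 FPKM in Alc UA, and its call ended with median-of-ratios size factors (adjusted p = 0.070).

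Acads rose by 0.37 ± 0.10 and Eci2 by 0.39 ± 0.10 in Alc UA against Ctrl (limma adjusted p = 0.0079 and 0.0050). The calls of Ppara, Cpt1a, Acads, Eci2, Crat and Etfb in Alc UA against Ctrl held in all 28 alternatives. Decr2 rose by 0.24 ± 0.09 and Eci1 fell by 0.37 ± 0.14, both close to the threshold (limma adjusted p = 0.0457 and 0.0481). Decr2 missed the threshold in 9 of the 15 fits that each left out a single liver, namely Ctrl 1, 2 or 4, Alc 2 or 5, or Alc UA 1, 2, 3 or 4 (adjusted p = 0.052 to 0.11), as well as with the 2 groups alone and without Ctrl 1 and Ctrl 5 (0.060 and 0.057). Eci1 missed it in 10 of them, namely those without a Ctrl liver, Alc 2 or 5, or Alc UA 1, 4 or 5 (0.0504 to 0.12), without Ctrl 1 and Ctrl 5 (0.14), with no filter (0.065) and after each of the 3 rescalings (0.14 to 0.30). Ehhadh and Acaa1b did not pass here (-0.75 ± 0.38 and -0.58 ± 0.23, limma adjusted p = 0.12 and 0.056), and their differences between Alc UA and Alc, given above, did not pass either. Both passed as falls without Ctrl 1 (adjusted p = 0.033 and 0.043), without Ctrl 1 and Ctrl 5 (0.028 and 0.040) and with library weights (0.0091 and 0.0054). Acaa1b also passed without Alc 4 and without Alc UA 4 (0.034 and 0.018). Without single livers 4 other members passed as well in this comparison, namely Pdk4 without Alc UA 3 (adjusted p = 0.018), Hadha without Ctrl 5 (0.0459), Cpt2 without Alc UA 4 (0.0468), and Acaa1a without Alc 4 or without Alc UA 5 (0.037 to 0.0451).

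Other genes of the pathway or near it, from lists chosen with earlier results of these data known, were counted in Alc against Ctrl. Among 25 tested PPARA targets outside the members, 3 rose and 7 fell (40.0%, median -0.39, against 33.3% and -0.12 over all genes). Plin5, a lipid droplet protein of oxidative tissues, fell by 1.38 ± 0.15, and Fgf21, a PPARA-induced hormone, fell by 1.97 ± 0.56 (limma adjusted p = 3.3e-05 and 0.015). Acot3, a peroxisomal thioesterase gene, rose by 1.71 ± 0.35 (limma adjusted p = 0.0025). Without Ctrl 4 the count of these targets was 1 higher and 5 lower, with 1 total for all libraries it was 4 and 4, and with library weights 3 and 15.

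Among 22 other peroxisomal oxidation genes 5 rose and 3 fell (36.4%, against 33.3% of all genes). Crot, the peroxisomal carnitine octanoyltransferase, fell from 549.7 ± 48.4 to 371 ± 46.6 FPKM (-0.57 ± 0.11, limma adjusted p = 0.0015). Abcd2, a peroxisomal importer of very long chains, rose by 1.10 ± 0.23 (limma adjusted p = 0.0026). Of 15 peroxins, the proteins that assemble peroxisomes, 3 rose and 1 fell (26.7%, against 33.3% of all genes), led by Pex26 (0.91 ± 0.15, limma adjusted p = 6.9e-04). That fall was not called with median-of-ratios size factors or with 1 total for all libraries, which gave 5 and 4 rises.

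Among 27 genes listed as other mitochondrial oxidation 11 rose and 2 fell (48.1%, median 0.17, against 33.3% and -0.12 over all genes). This list is not confined to fatty acids. It also holds genes of branched-chain amino acid and propionate breakdown, and some of the rises were theirs. Echs1, the short-chain enoyl-CoA hydratase, rose from 126 ± 14.5 to 188 ± 18.2 FPKM (0.57 ± 0.09, limma adjusted p = 5.4e-04). Acad10 rose by 1.03 ± 0.15, the medium-chain synthetase genes Acsm3 and Acsm5 rose by 0.83 ± 0.16 and 0.80 ± 0.16, and Slc25a42, a mitochondrial CoA carrier, fell by 0.72 ± 0.11 (limma adjusted p = 2.6e-04, 0.0019, 0.0022 and 3.4e-04). Of 24 partners and coregulators of PPARA 4 rose and 1 fell (20.8%, against 33.3% of all genes). That count was 8 and 0 after quantile normalization and with median-of-ratios size factors, and 2 and 0 without Ctrl 2 or without Alc 2. It was 2 and 1 without Ctrl 4, 3 and 0 without Alc 5, and 7 and 4 with library weights. Lpin1, a coactivator of PPARA and phosphatidate phosphatase, rose from 3.09 ± 0.599 to 11.9 ± 8.57 FPKM (1.47 ± 0.32, limma adjusted p = 0.0037). In Alc UA against Alc 0 genes of these lists passed (limma), and between 0 and 4 genes of a list had an unadjusted p under 0.05, the 4 being among the 22 other peroxisomal genes.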

How the data were processed

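Liver RNA of 15 mice was sequenced, and the authors deposited 1 table of FPKM values, 18510 rows by 15 libraries, with columns named by group and replicate. The submitters' processing notes name the tools StringTie, DESeq, RSEM (1.2.8), Bowtie2 (2.2.5) and HISAT2 (2.1.0) but no roles. The aligner used, genome build, annotation, strand use and read numbers were not given in the sources, so the depth, and with it the counting error of a value, is unknown.

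Genes reaching 1 FPKM in 5 or more of 15 libraries were kept. log2(FPKM + 1) was fitted in limma 3.58.1 (R 4.3.3) with 1 mean per group, a trended prior and 12 residual degrees of freedom, and p-values were adjusted by Benjamini and Hochberg over all 10959 genes in each comparison, at 0.05. The pseudocount of 1 understates the change of low genes. The fit was also run on simulated data, with independent normal spread for each gene and changes added to Alc alone. That setting holds no outlying livers such as Alc 4, and its outcome is not reported here. Intervals are 95% limma intervals, unadjusted. Alternatives changed the pseudocount, filter, scaling, trend, library weights, groups fitted, a replicate block and each single library. Leaving out Ctrl 1 and Ctrl 5, with or without Alc 4, was chosen after seeing the data, as were the pairs of genes set in ratio. Some genes of the other lists are not reported here. Values of every library were given for 9 members named in advance and for those with the smallest p, and other pathway genes were named from the called genes with the smallest p in each list. Members and lists were chosen with earlier results of these data known. Promoter windows came from RefSeq (GRCm38.p6), where 25 of 30 members matched by symbol, and coding sequences from GENCODE M21.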

Additional observations from a re-analysis of the deposited data

Results flagged for a closer look

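Of 90 groups of 5 livers (30 members in 3 groups), 9 held a liver whose gap to its nearest neighbour was over 0.71 of the range of the group. For a single group chance gives such a gap about 1 time in 20. The 90 groups are not independent, since the same livers recur for every member, so the count cannot be set against that rate. The share over all genes was not counted. Alc 4 was the high liver for Cpt2 at 84.5 FPKM (the others 68.0 to 72.2), for Acadm at 413 (297 to 320.4) and for Acaa1b at 1781 (942 to 1077). Ctrl 1 was the low liver for Acadvl at 174 FPKM (the others 225 to 242) and for Acaa1a at 139 (168 to 178). Ctrl 4 was low for Bdh1 at 92.0 FPKM (the others 106 to 111). In Alc UA, replicate 1 was low for Slc25a20 at 119 FPKM (the others 129 to 132), replicate 2 was high for Hadhb at 252 (199 to 211), and replicate 5 was low for Etfa at 208 (246 to 251).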

How the results depend on the processing

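No member changed direction with a call under any of 28 alternatives. Library weights raised the number of members past the threshold to 18 in Alc against Ctrl and to 14 in Alc UA against Ctrl, and that of all genes in Alc against Ctrl to 5870. Leaving out single livers gave 4 to 10 members in Alc against Ctrl, 0 in Alc UA against Alc and 7 to 11 in Alc UA against Ctrl. Over all genes it gave 2571 to 4515, 1 to 5 and 3835 to 5374. The 1 gene called in Alc UA against Alc became 2 with a filter of 5 FPKM in 5 libraries, with scaling to the same sum and without Ctrl 1 and Ctrl 5, became 3 with library weights, and became 0 with the 2 groups alone, with the replicate block and without Ctrl 1, Ctrl 5 and Alc 4. The causes were not tested.

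The labels do not say whether livers with the same replicate number form pairs, and the check made here cannot exclude it. Same-numbered livers had correlations of deviations of -0.30 to 0.29 over 15 pairs, 5 of them over 0.1, and 5 of 30 best matches were with the own number. With the replicate block 8 members were past the threshold in Alc against Ctrl (3 higher, 5 lower), 0 in Alc UA against Alc and 9 in Alc UA against Ctrl. Under the block Cpt2 passed (adjusted p = 0.036) and Hadh did not (0.067) in Alc against Ctrl. In Alc UA against Ctrl Acaa1a and Acaa1b passed (0.0474 and 0.022), and Decr2 and Eci1 did not (0.069 and 0.061). The spread between 5 livers per group limits what could be seen, and the read depth is unknown.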
